A study of Mus musculus with 8 samples.

Results

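The transcripts followed here encode Toll-like receptors and the proteins that work beside them: the receptors Tlr1, Tlr2, Tlr3, Tlr4, Tlr7 and Tlr9, the co-receptors Cd14, Ly96 and Ly86, and the transport protein Unc93b1. Members were taken by gene name, and 9 of the 10 had a probe with their symbol on the array, out of 16593 genes in all. Tlr9 had no named probe and was not analysed here. Of the 9 genes, Tlr4 and Unc93b1 were read by 2 probes each and the other 7 by 1 probe, which makes 11 probes.

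The samples were cells of renin lineage (CoRL), the renin-producing cells beside the glomerulus and their descendants, sorted by ZsGreen fluorescence from mouse kidney. All mice, controls included, carried Ren1cCre×Rs-ZsGreen-R, in which Cre driven by the renin promoter turns ZsGreen on permanently, so the sorted cells included any that had made renin in the past. In the injured group, 4 mice received 2 intraperitoneal doses of sheep anti-glomerular antibody 24 h apart, each of 12 mg per 20 g of body weight, which depletes podocytes (experimental FSGS), and were studied 5 days after the second dose. The 4 uninjured mice were age-matched and received no antibody. RNA of each mouse was read on 1 Illumina array, and a probe was called detected on an array where its intensity exceeded that of negative control beads at a detection p-value under 0.01.

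Toll-like receptors are membrane proteins that bind conserved molecules of microbes or of damaged cells. Those at the cell surface bind lipids and lipoproteins, those in endosomes bind nucleic acids, and nearly all of them signal through the adaptor Myd88 to NF-kB and interferon regulatory factors. Macrophages, monocytes and dendritic cells are the best known users of the family, and in the kidney some receptors are also described in tubular and mesangial cells.

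The arrays differed in depth before any gene was compared. Detected probes numbered 5793, 8365, 10016 and 12052 on uninjured replicates 1 to 4 and between 11153 and 11700 on the day 5 FSGS arrays, and the number of detected member probes was 0, 2, 4 and 5 in uninjured replicates 1 to 4 against 9 or 10 in the day 5 mice. Ren1 and Akr1b7, the defining markers of renin cells, had no probe of that name and were not analysed here. Of 11 other renin cell and smooth muscle markers, Acta2 and Rgs5 were detected on all uninjured arrays, while Tagln, Cnn1 and Pdgfrb were detected on no array. The mean level of these markers ran from 6.001 to 6.45 in uninjured and from 5.88 to 6.74 in day 5 FSGS mice, so the groups overlapped. Levels are log2 intensities after background correction and quantile normalization, and they are compared between mice and not between genes.

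Promoter sequence was in hand for 5 of the 10 genes (Tlr1, Tlr2, Tlr3, Tlr9 and Ly86), 6 start sites in all since Tlr1 has 2, and for Tlr4, Tlr7, Cd14, Ly96 and Unc93b1 none was matched. Shown are the pair of receptors that work as a dimer, Tlr1 and Tlr2, and Ly86, the member with the widest separation of the groups below, each from 200 bases before to 5 bases after a RefSeq start in GRCm38.p6, 5′ to 3′ on the gene's own strand. Capitals mark matches, on either strand, to GAGGAA (the core bound by the myeloid factor PU.1) or to an NF-kB form of 3 G and 2 C with any 5 bases between them.
Tlr1, chr5:64933554-64933758, minus strand: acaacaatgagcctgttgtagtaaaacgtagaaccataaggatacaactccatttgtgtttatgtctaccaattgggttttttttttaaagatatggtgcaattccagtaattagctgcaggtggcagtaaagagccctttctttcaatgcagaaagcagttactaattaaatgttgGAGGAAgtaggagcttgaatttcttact
Tlr2, chr3:83841604-83841808, minus strand: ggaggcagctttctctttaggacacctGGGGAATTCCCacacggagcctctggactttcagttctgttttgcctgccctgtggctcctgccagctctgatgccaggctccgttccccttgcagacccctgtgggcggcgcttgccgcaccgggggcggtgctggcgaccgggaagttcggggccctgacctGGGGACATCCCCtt
Ly86, chr13:37345145-37345349, plus strand: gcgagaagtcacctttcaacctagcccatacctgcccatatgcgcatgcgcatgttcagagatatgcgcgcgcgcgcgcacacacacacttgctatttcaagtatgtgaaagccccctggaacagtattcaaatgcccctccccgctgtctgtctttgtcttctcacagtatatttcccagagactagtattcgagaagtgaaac
The Tlr1 window shown held 1 GAGGAA, while the same stretch at the other Tlr1 start held no match, and the capitals in the Tlr2 window are 2 runs of overlapping matches to the NF-kB form. The Ly86 window held neither set of letters. Over windows of 300 bases around each start, GAGGAA was in 2 of the 6 member windows (Tlr1 and Tlr9) against 28.3% of 32851 mouse promoters, and the NF-kB form in 2 of 6 (Tlr2 and Tlr3) against 50.8%. The element of the interferon regulatory factors, 2 copies of GAAA with any 2 bases between them, was in 0 of 6 and in 3.4% of all promoters. The member windows are too few to compare shares, and a match is a stretch of letters, not a measured binding site.

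Transcripts of the 3 surface receptors, of 2 of the 3 co-receptors and of the transport protein were more abundant in the sorted cells on day 5 of FSGS. Which cells of the sorted pool carried them was not tested. Tlr1, Tlr2, Tlr4, Cd14, Ly86 and Unc93b1 rose (limma, adjusted p of at most 0.01), 6 of the 9 members measured, where 1.88% of all genes were called higher, and 0 fell, where 0.38% were called lower. Tlr3, Tlr7 and Ly96 did not pass the test. On the normalized scale every day 5 mouse was above every uninjured mouse in each of the 9 genes, which held for 10.4% of all genes. Tlr3 is among the 9 although no array detected it. Before normalization the groups overlapped for Tlr1, Tlr3, Tlr7 and the first probes of Tlr4 and Unc93b1. The median change over the 9 members was 2.04 on the log2 scale, beside -0.03 over all genes. It was 0.75 with no background correction, where Cd14, Ly86 and Unc93b1 kept their calls, and 0.67 in the authors' processed table, where Ly86 and Unc93b1 did. The call rests on all but 1 of the mice: with any array other than day 5 FSGS replicate 3 left out, 0 members were called by limma although 9 kept an unadjusted p under 0.05, and without day 5 FSGS replicate 3, 8 members were called, along with 7.15% of all genes called higher. The loss of calls was not limited to the members. Of all genes, 375 were called on all 8 arrays, 31 without uninjured replicate 1 and 26 without uninjured replicate 2. Genes with an unadjusted p under 0.05 numbered 5055, 4729 and 4271 in turn. The losses given below for single genes and lists are to be read beside this fall. The methods' Bayesian test called 8 members on all 8 arrays and 5.98% of all genes higher.

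**Figure D1:**
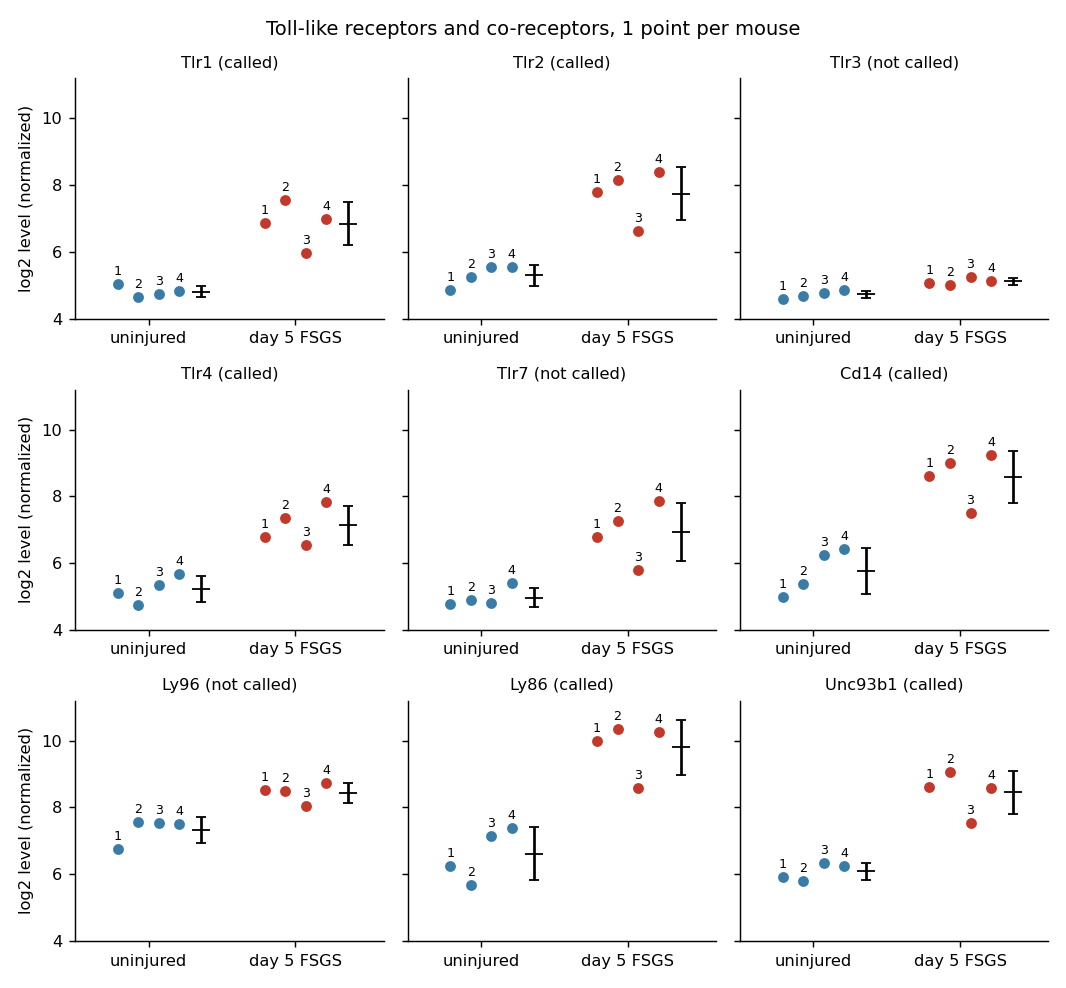
Normalized log2 level (vertical axis) of each of the 9 genes in 4 uninjured (blue) and 4 day 5 FSGS mice (red), 1 point per mouse with its replicate number, and the mean with its SD as a bar. In all 9 panels the red points lie above the blue ones, and replicate 3 is the lowest red point in 8 of them, Tlr3 being the exception. Tlr3 was detected on no array.

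The surface receptors were at or near the background of the arrays in uninjured mice and clearly above it on day 5. Tlr2, which pairs with Tlr1 or Tlr6 to bind bacterial lipopeptides, had log2 levels of 4.85, 5.25, 5.53 and 5.55 in the uninjured mice and of 7.80, 8.17, 6.62 and 8.39 in the day 5 FSGS mice, replicates 1 to 4 in turn as throughout. The groups did not overlap, and day 5 replicate 3 was the lowest of its group by a wide margin. Its probe was detected on 0 uninjured arrays and on all 4 day 5 arrays, so the uninjured value is only a bound. On the background-corrected scale Tlr2 was at least 2.54-fold higher on day 5 (log2 change 2.45, SE 0.37, adjusted p = 0.00790). Here and below, such a bound holds for that scale only and is no lower limit on others. For Tlr2 the ratio of mean raw intensities was 2.15, and the log2 change was 0.96 in the authors' processed table. The bound sets the day 5 mean against the higher of the probe's own level and the lowest detected level on each uninjured array. Tlr1, the partner of Tlr2, stood at 5.04, 4.65, 4.73 and 4.83 in the uninjured mice and at 6.87, 7.56, 5.98 and 6.99 on day 5. As with Tlr2 no uninjured array detected it and all 4 day 5 arrays did. The rise of Tlr1 was at least 1.37-fold (log2 change 2.04, SE 0.30, adjusted p = 0.00755).

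Tlr4, the receptor for bacterial lipopolysaccharide, averaged 5.21 ± 0.39 (SD, n = 4) in uninjured and 7.13 ± 0.58 (SD, n = 4) in day 5 mice over its 2 probes. By mouse the levels were 5.10, 4.75, 5.34 and 5.66 without injury and 6.79, 7.36, 6.55 and 7.84 after it. Replicate 4 was the highest mouse in both groups, and the lowest day 5 mouse still lay 0.88 above the highest uninjured one. The measured rise was 3.79-fold (log2 change 1.92, SE 0.31, adjusted p = 0.00940), the nearest to the threshold among the called members, and it rests on uninjured values mostly at background, with the first probe detected on 0 and the second on 1 of 4 uninjured arrays. With the brightest probe alone Tlr4 was not called (2.03, adjusted p = 0.0139). The 2 Tlr4 probes changed by 1.81 and 2.03, and their changes did not differ beyond the spread (difference 0.22, exact permutation test over 70 arrangements, two-sided p = 0.486). The calls of Tlr1, Tlr2 and Tlr4 were all lost with any 1 array other than day 5 replicate 3 left out, with adjusted p up to 0.0289, 0.0323 and 0.0373. Without day 5 replicate 3 their changes grew to 2.33, 2.82 and 2.12, with adjusted p of 0.000345, 0.000315 and 0.00241.

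Among the co-receptors, Ly86 and Cd14 showed the largest changes of all members and Ly96 the smallest change of any member detected in the uninjured mice. Ly86 (MD-1) is the partner of the Toll-like protein Cd180. Its levels were 6.24, 5.67, 7.15 and 7.37 in the uninjured mice and 10, 10.35, 8.59 and 10.25 on day 5. The uninjured mice formed a lower pair (replicates 1 and 2, where the probe was not detected) and a higher pair, and the groups were 1.22 apart at their nearest. Ly86 rose 9.11-fold (log2 change 3.19, SE 0.49, 95% interval 2.06 to 4.31, adjusted p = 0.00830). The same probe gave raw intensities of 267, 208, 247.5 and 289.2 in the uninjured mice and of 1434, 1695.8, 534.3 and 1202.6 on day 5, a ratio of means of 4.81, so the size of the change depends on how much background is taken off.

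Cd14 binds lipopolysaccharide and hands it to Tlr4. Its log2 levels were 4.98, 5.37, 6.24 and 6.41 in uninjured replicates 1 to 4, with detection in replicates 3 and 4 only, and 8.61, 9.003, 7.49 and 9.22 in the day 5 mice. For Cd14 the order of the uninjured mice was that of the detected probes on their arrays, whose part in this spread was not tested. Cd14 rose 7.13-fold (log2 change 2.83, SE 0.44, adjusted p = 0.00906). Its raw intensities were nearly flat across the uninjured mice, 211.4, 198.1, 197.9 and 209, and reached 670.1, 780.2, 314.9 and 648.7 after injury. Leaving out any 1 array other than day 5 replicate 3 ended the calls of Ly86 and Cd14, with adjusted p up to 0.0334 and 0.0357. Without that mouse the changes were 3.59 and 3.20, with adjusted p of 0.00114 and 0.00120.

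Ly96 (MD-2), which sits on Tlr4 and forms the pocket for lipopolysaccharide, was detected in 3 of 4 uninjured mice. Its levels were 6.75, 7.55, 7.54 and 7.50 without injury and 8.51, 8.48, 8.03 and 8.73 on day 5. Uninjured replicate 1 stood apart from 3 nearly equal values, and the groups did not overlap. The difference was 1.10 (SE 0.22, 95% interval 0.60 to 1.61, 2.15-fold), which missed the threshold (adjusted p = 0.0179). Without uninjured replicate 1 it was 0.91, and without day 5 replicate 3 it was 1.24 with an adjusted p of 0.00599.

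Neither endosomal receptor measured among the members, Tlr3 or Tlr7, passed the limma test. Tlr7, the receptor for single-stranded RNA, was detected on 0 uninjured arrays and on 3 of 4 day 5 arrays. Levels were 4.78, 4.89, 4.80 and 5.39 in the uninjured mice and 6.77, 7.26, 5.79 and 7.86 on day 5, where replicate 3 was the undetected one and gave the widest day 5 range of any member, 2.06. The day 5 mean, which includes the undetected replicate 3, was 1.43-fold above the uninjured bound. The difference of 1.95 (SE 0.40) did not pass the test (limma, adjusted p = 0.0186), though that of the called Tlr4 was no larger (1.92). With day 5 replicate 3 left out the Tlr7 difference was 2.33 and passed (limma, adjusted p = 0.00128). On all 8 arrays the methods' Bayesian test gave Tlr7 an adjusted p of 0.000103. Tlr3, the receptor for double-stranded RNA, was not detected on any of the 8 arrays. Its levels, 4.59, 4.69, 4.76 and 4.86 without injury and 5.08, 5.01, 5.25 and 5.13 after it, carry no fold, and its difference of 0.39 (SE 0.10, adjusted p = 0.0348) was not called and was -0.15 with scaling to a common 75th percentile. The raw intensity of its probe averaged 158.3 in uninjured and 163.4 in day 5 mice.

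Unc93b1, the protein that escorts the nucleic acid receptors from the endoplasmic reticulum to endosomes, had the smallest adjusted p of the members. Its levels over 2 probes were 5.92, 5.80, 6.34 and 6.26 in uninjured mice and 8.62, 9.07, 7.54 and 8.57 on day 5. The uninjured mice lay close together (SD 0.26), and the nearest mice of the groups were 1.20 apart. Unc93b1 rose by a measured 5.17-fold (log2 change 2.37, SE 0.30, adjusted p = 0.00594), a mean that includes a probe at background in all uninjured mice. Its second probe, detected on 3 of 4 uninjured arrays, gave 7.27-fold. Its call too was lost with any 1 array other than day 5 replicate 3 left out (adjusted p up to 0.0261), and without that mouse the change was 2.67 (adjusted p = 0.000241).

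The 2 Unc93b1 probes gave changes of unlike size, though the difference between them did not hold after adjustment. The second probe gave 6.51, 6.73, 6.85 and 6.97 in uninjured and 9.90, 10.27, 8.60 and 9.74 in day 5 mice, a change of 2.86. The first probe was detected on 0 uninjured arrays and gave 5.33, 4.86, 5.84 and 5.55, then 7.34, 7.87, 6.49 and 7.40, a change of 1.88. For both probes every day 5 mouse was above every uninjured mouse, with replicate 3 lowest on day 5. The changes differed by 0.98 (exact permutation test over 70 arrangements, two-sided p = 0.0286, the smallest p this design allows, and 0.0571 adjusted over the 2 probe pairs compared). The first probe was at background in the uninjured mice, and what part this had in the difference was not tested.

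**Figure D2:**
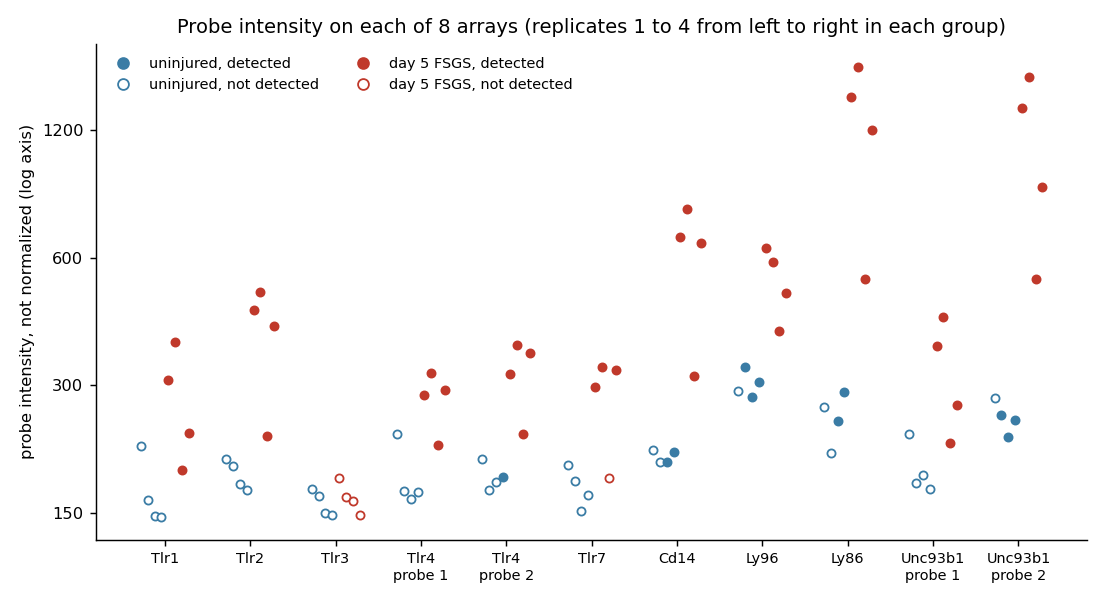
Intensity of each of the 11 probes on a log axis, before normalization, with the 8 arrays side by side (blue uninjured, red day 5 FSGS, filled where the probe was detected). Of the 11 probes, 9 were detected on all 4 day 5 arrays and 6 on no uninjured array, and Ly86 goes from at most 289.2 in uninjured mice to as much as 1696 on day 5.

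On the unnormalized scale the changes of the other probes were smaller than after background correction. The ratio of mean intensities was 2.96 for Cd14, 2.15 for Tlr2, 1.75 for Ly96, 1.65 for Tlr1 and for Tlr7, 1.53 and 1.75 for the 2 Tlr4 probes, and 1.03 for Tlr3. Before normalization the groups overlapped for Tlr1, Tlr3, Tlr7 and the first probes of Tlr4 and Unc93b1, each time with uninjured replicate 1 above day 5 replicate 3 (215.5 and 189.7 for Tlr1, 194.8 and 181.1 for Tlr7). Uninjured replicate 1 was the array with the highest median intensity, 234.5. The mean level of the 9 genes was 5.36, 5.40, 5.83 and 5.98 before injury and 7.67, 8.03, 6.87 and 8.11 after it.

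Other receptors and helper proteins of the family were listed apart, and 13 of 14 were measured, Tlr5 being not analysed here. Limma called 0 of the 13, and the methods' Bayesian test called 5. At an unadjusted p under 0.05 there were 6 higher and 1 lower, beside 2482 and 2573 of all 16593 genes. The median change was 0.25. The smallest p was that of Tlr13, a mouse receptor for bacterial ribosomal RNA, with levels of 5.58, 5.43, 5.44 and 5.54 in uninjured and 7.25, 8.12, 6.37 and 8.21 in day 5 mice. Its groups did not overlap, and the difference was 1.99 (SE 0.37, adjusted p = 0.0153). Chosen after their values were seen, Cd180, the receptor that Ly86 accompanies, differed by 2.13 (adjusted p = 0.0174), Tlr8 by 1.53 (adjusted p = 0.0754) and Tlr6 by 1.32 (adjusted p = 0.0413). By contrast Tlr11 and Tlr12 differed by 0.13 and 0.11 (adjusted p = 0.755 and 0.880). Without day 5 replicate 3, 5 of the 13 were called.

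Downstream of the receptors, 28 of 34 listed adaptors, kinases and inhibitors were measured, and 3 rose, 0 fell and 25 did not pass the test, with a median change of 0.35. Of all genes 1.88% were called higher. Irf5, a transcription factor activated by Tlr7 and Tlr9 signalling, rose 7.22-fold, from 6.09, 6.50, 6.996 and 7.59 to 9.72, 10.12, 8.74 and 9.99 (log2 change 2.85, SE 0.39, adjusted p = 0.00655). Tnfaip3 (A20), an inhibitor of NF-kB signalling, rose 4.26-fold (adjusted p = 0.00766), and Btk, a kinase of myeloid and B cells, at least 1.51-fold (adjusted p = 0.00653). Irf5 and Tnfaip3 were each detected on 2 of 4 uninjured arrays. Myd88 itself, named after its values were seen, differed by 1.20 (SE 0.29, adjusted p = 0.0310), with levels of 7.38, 6.40, 7.35 and 6.95 against 8.43, 8.39, 7.51 and 8.54. Each of the 3 calls was lost with any 1 array other than day 5 replicate 3 left out. Without that mouse 7 of the 28 were called, along with 7.15% of all genes called higher.

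Of 33 genes that Toll-like receptor signalling is known to induce, 31 were measured, and 2 rose, 0 fell and 29 did not pass the test. Among all genes 1.88% were called higher. The median change was 0.96, and at an unadjusted p under 0.05 there were 22 higher and 1 lower, beside 2482 and 2573 of all 16593 genes. Ccl3, a chemokine of macrophages, rose 3.30-fold with unusually little spread, from 7.37, 6.91, 7.64 and 7.32 to 9.07, 8.72, 9.16 and 9.17 (log2 change 1.72, SE 0.17, adjusted p = 0.00341). Day 5 replicate 3, the lowest mouse for most receptors, was not low for Ccl3. Icam1, an adhesion molecule for leukocytes, rose 3.09-fold (log2 change 1.63, adjusted p = 0.00630). The cytokine genes Tnf and Il1b, named after their values were seen, differed by 0.36 (adjusted p = 0.189) and 1.48 (adjusted p = 0.0184). Leaving out 1 array gave between 0 and 12 calls in this list, the 12 without day 5 replicate 3 and at most 1 without any other.

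**Figure D3:**
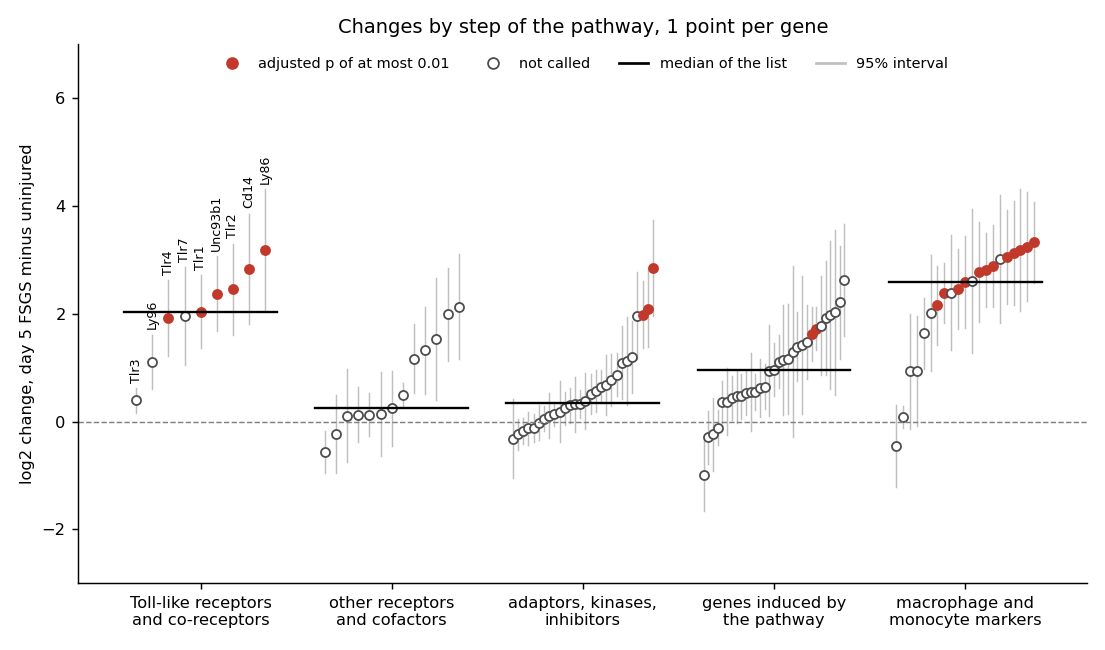
Change on the log2 scale, day 5 FSGS minus uninjured, of each measured gene in 5 lists, 1 point per gene with its 95% interval, filled where the adjusted p was at most 0.01, and a bar at the median of the list. The medians were 2.04 for the receptors and co-receptors, 0.25 for other receptors and cofactors, 0.35 for adaptors, kinases and inhibitors, 0.96 for induced genes and 2.59 for macrophage and monocyte markers.

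Markers of other cell types differed in how they changed, and those of macrophages and monocytes rose most. Of 25 macrophage and monocyte markers 21 were measured, and 12 rose and 0 fell, where 1.88% of all genes were called higher and 0.38% lower. Their median change was 2.59, and their mean level was 6.81 to 7.20 in uninjured and 8.28 to 9.85 in day 5 mice. Cx3cr1, the fractalkine receptor, rose 10.01-fold (adjusted p = 0.00340), Clec4a3, a myeloid lectin, 9.47-fold (adjusted p = 0.00653) and Mrc1, the mannose receptor, 9.08-fold (adjusted p = 0.00846). Cx3cr1 and Clec4a3 were detected on 2 and Mrc1 on 3 of 4 uninjured arrays, so these folds rest in part on background values. Named after their values were seen, 10 markers were detected on all 8 arrays, those of uninjured mice included. Of these Adgre1, C1qa, C1qb, C1qc, Aif1, Ms4a7, Ctss and Fcgr4 rose, while Lyz2 and Laptm5 were not called (adjusted p = 0.0169 and 0.0128). Mertk, Cd163 and Marco differed by 0.93, 0.94 and -0.45 and were not called, and Vsig4 was detected on no array. The part of the macrophage markers in the rise of the receptors was not tested. With any 1 array other than day 5 replicate 3 left out, limma called 0 of these 21 markers, with 17 or 18 at an unadjusted p under 0.05. Without day 5 replicate 3 it called 17, along with 7.15% of all genes called higher. In RNA from a sorted pool, more cells of a type and more RNA per cell cannot be told apart.

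Dendritic cell markers, all 12 of them measured, included 2 that rose, Itgax (8.15-fold, adjusted p = 0.00160) and Cd83 (4.42-fold, adjusted p = 0.00531), with mean levels of 6.07 to 6.38 against 6.88 to 7.57. Itgax was detected on 2 of 4 uninjured arrays. The other 10 were not called, and 7 of the 12 were higher at an unadjusted p under 0.05. Xcr1, Clec9a, Ccr9 and Siglech differed by 0.06, 0.17, 0.14 and -0.32, and Xcr1 and Ccr9 were detected on no array. In the T cell and NK cell list, 1 of 11 rose, Cd3g at least 1.53-fold (adjusted p = 0.00413), and the mean level ran from 5.04 to 5.63 and then from 6.08 to 6.72. The other 10 were not called, and 7 of the 11 were higher at an unadjusted p under 0.05. Cd8a and Klrb1c differed by -0.23 and 0.15. At an unadjusted p under 0.05, which 5055 of all 16593 genes had, there were 1 of the 11 neutrophil and 1 of the 8 B cell markers. Limma called 0 in both of these lists, whose medians were 0.39 and 0.02. Their strongest genes were Csf3r (0.93, adjusted p = 0.0454) and Cd79b (0.58, adjusted p = 0.109), and 4 and 5 of the genes were detected on no array, the neutrophil genes Elane and Mpo among them. Of 16 proximal tubule markers 2 fell, Slc22a12 (log2 change -2.50, adjusted p = 0.00370) and Hpd (log2 change -1.04, adjusted p = 0.00630), and the mean level was 10.12 to 10.34 in uninjured and 7.43 to 9.58 in day 5 mice. Hpd was detected on 1 uninjured and 0 day 5 arrays, so the size of its change rests on background values. With 1 array left out, the calls ran from 0 to 4 for dendritic cells, 0 to 3 for T and NK cells and 0 to 7 for the proximal tubule, the highest each time without day 5 replicate 3.

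Among the other lists, Ptpro of the 5 podocyte markers rose 3.52-fold (adjusted p = 0.00684), a call kept with 1 array left out only when that was day 5 replicate 3. It was detected on 1 of 4 uninjured arrays. Podxl, Wt1, Plce1 and Cdkn1c differed by 0.12, -0.16, -0.15 and 1.20 and were not called. Day 5 replicate 3 was the lowest day 5 mouse for Ptpro and the highest for Podxl and Cdkn1c. Limma called 0 of the 12 endothelial, 0 of the 11 renin cell and smooth muscle and 0 of the 11 genes induced by tissue dissociation. At an unadjusted p under 0.05 there were 3, 1 and 7 higher and 0, 1 and 0 lower, beside 2482 and 2573 of all 16593 genes. The strongest of each list were Eng (0.80, adjusted p = 0.0307), Des (1.53, adjusted p = 0.0490) and Atf3 (1.35, adjusted p = 0.0186). The dissociation genes had a mean level of 8.87 to 9.16 in uninjured and 9.20 to 9.86 in day 5 mice, lowest on day 5 in replicate 3 as for the receptors, and their part in the result was not tested either.

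**Figure D4:**
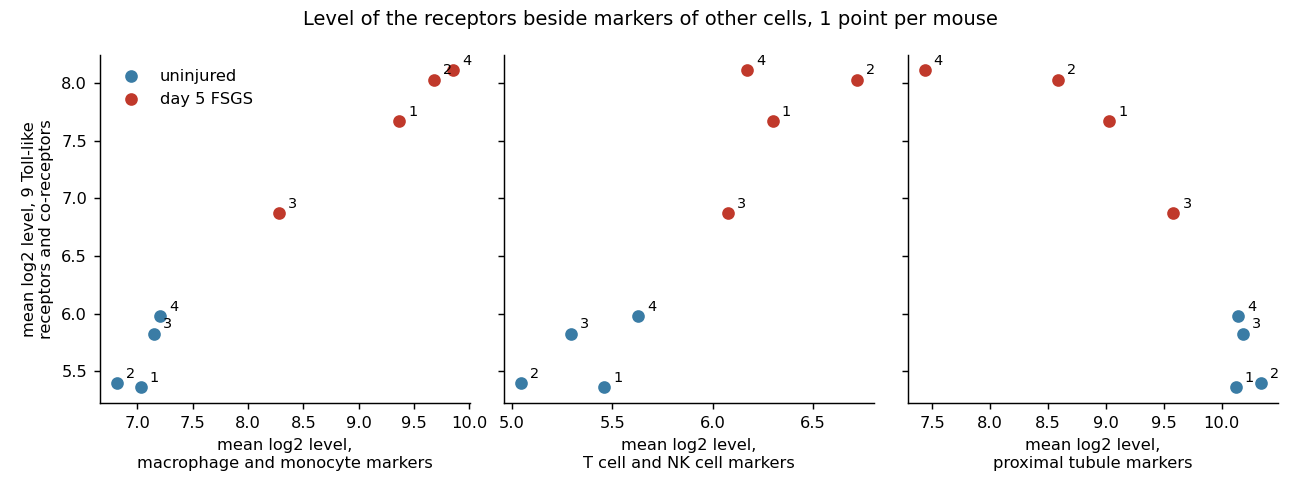
Mean log2 level of the 9 receptors and co-receptors (vertical axis) against that of macrophage and monocyte, T cell and NK cell, and proximal tubule markers (horizontal axes), 1 point per mouse with its replicate number, blue uninjured and red day 5 FSGS. Day 5 replicate 3, lowest of the red points for the receptors at 6.87, is also lowest for macrophage markers at 8.28 and highest of the red points for tubule markers at 9.58.

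Day 5 replicate 3 was thus placed nearest to the uninjured mice for the receptors, the macrophage markers and the tubule markers alike. It was farthest from them for the endothelial markers, with a mean level of 8.25. The other day 5 mice had 6.70 to 7.18 there and the uninjured mice 6.29 to 7.13. For the podocyte markers too its mean level, 8.06, was the highest of the 8 mice. The level of each receptor was also taken relative to the mean of the macrophage markers on the same array. The day 5 minus uninjured difference of that relative level was 0.94 for Ly86, 0.59 for Cd14, 0.20 for Tlr2, 0.13 for Unc93b1, -0.20 for Tlr1, -0.29 for Tlr7, -0.32 for Tlr4, -1.14 for Ly96 and -1.85 for Tlr3, given as a description with no test. Tlr1, Tlr2, Tlr3 and Tlr7 were detected on no uninjured array, so their uninjured values here are background values. Tlr3 was detected on no day 5 array either, so its -1.85 only sets background values against the macrophage mean. The genes whose levels followed the mean of the members most closely over the 8 mice, among 6806 detected on all day 5 arrays, were Celf2 (Pearson r = 0.999), Clec4a3 (0.998), Hdgfl3 (0.998), Rassf4 (0.997) and Batf (0.997). All 5 rose on day 5, and since the mice form separate groups these r values mostly restate the difference between the groups. They share the 8 arrays and carry no p.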

How the data were processed

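The authors deposited 2 tables of the same 8 Illumina arrays. The main one holds an intensity per probe, not normalized, with a detection p-value, and the software behind it was not given in the sources used here. The other holds the authors' processed signal after variance stabilization and quantile normalization in lumi, and served as an alternative. Of 25697 probes, 23978 have 1 gene symbol in the platform table, and 23962 of these matched RefSeq.

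From the deposited intensities, limma 3.58.1 in R 4.3.3 computed log2 levels with neqc (background from the detection p-values, offset 16, quantile normalization). All probes were kept, and probes of a gene were averaged. Then lmFit and eBayes compared the groups over 16593 genes, with Benjamini-Hochberg adjustment and a call at an adjusted p of at most 0.01. Each array is a separate mouse, and no arrays held identical values. Array position and scan batch were not given in the sources used here. The methods' Bayesian test was rebuilt with a confidence of 10 and a window of 101 genes.

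All members are named, with up to 3 called genes of each list with the largest change, or the gene of smallest p where none was called. The members and lists were chosen with earlier results of these data known. The alternatives were other background corrections and scalings, the processed table, a detection filter, other probe rules, variance models and tests, the replicate number as a block, a looser threshold and leaving out each mouse. The steps were tested on simulated data. Detected probes, 5793 to 12052 per array, limit the precision for weak genes.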

Additional observations from a re-analysis of the deposited data

Results flagged for a closer look

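Ly96 in uninjured replicate 1 had a log2 level of 6.75, while the other 3 uninjured mice lay between 7.50 and 7.55. The gap to the nearest mouse was 0.935 of the whole range of the group, above the limit that Dixon's test sets for 4 values. It was the only 1 of 18 groups tested (9 genes in uninjured and day 5 FSGS mice) to pass that limit, and chance passes about 1 group in 20. The same array had the fewest detected probes, 5793, and its Ly96 probe was not detected, whereas its raw intensity of 291.1 lay within the range of the other uninjured arrays. The part of detection in this value was not tested.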

How the results depend on the processing

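All alternatives kept the direction of the 9 members except for Tlr3, which was -0.15 with scaling to a common 75th percentile (adjusted p = 0.565, and 0.0248 to 0.565 over its alternatives). That scaling moved the median of all genes to -0.52 and scaling to a common median to -0.18. The counts below are calls among the members, the other receptors, the adaptors, the induced genes and all genes, in this order, where 6, 0, 3, 2 and 375 (312 higher, 63 lower) were called as reported. They were 3, 1, 3, 2 and 478 with no background correction, 1, 0, 1, 2 and 204 with an offset of 50, and 2, 1, 3, 2 and 425 (309 higher, 116 lower) with the authors' processed table. Scaling to a common median gave 7, 2, 5, 8 and 757 (719 higher, 38 lower), and scaling to the 75th percentile 8, 2, 4, 8 and 1025 (579 higher, 446 lower). Keeping only probes detected on all arrays of a group gave 7, 2, 5, 9 and 1004. The brightest probe of a gene gave 5, 0, 3, 3 and 418, with Tlr4 lost, and each probe alone gave 6, 1, 4, 4 and 519. An intensity trend with robust variances gave 7, 2, 4, 6 and 660, and array weights 8, 4, 8, 9 and 1439. The methods' Bayesian test gave 8, 5, 7, 13 and 1628, and an adjusted p under 0.05 gave 9, 5, 9, 12 and 2381. The methods' unequal-variance test called 0 in every list and 0 genes in all, with 9, 6, 13, 13 and 3822 at an unadjusted p under 0.05. Chosen after seeing the data, omitting 2 arrays at once, uninjured replicate 1 with day 5 FSGS replicate 3, gave 8, 4, 9, 13 and 1716, and the processed table with the Bayesian test 8, 5, 6, 13 and 1705. The cause of these changes was not tested.

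With 1 mouse left out the calls ran from 0 to 8 among the members, 0 to 5 among the other receptors, 0 to 7 among the adaptors, 0 to 12 among the induced genes and 0 to 1898 among all genes, the highest each time without day 5 FSGS replicate 3 and the 0 among all genes without day 5 FSGS replicate 1, where 4447 had an unadjusted p under 0.05. The replicate numbers are shared by different mice, and the sources used here name no pairing. Over all genes the deviations of same-numbered mice from their group means correlated at 0.06, -0.09, -0.07 and 0.11. These values show no pairing but cannot exclude one, since mice processed together need not correlate over all genes. With the replicate number as a block limma called 0 in every list and 0 of all genes, with 9, 7, 14, 23 and 4871 at an unadjusted p under 0.05. Of the 11 member probes 6 were detected on no uninjured array, and there the data give bounds only.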
